A study of Mus musculus with 13 samples.

Results

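In all, 10 genes of the epithelial to mesenchymal transition (EMT) were followed during the differentiation of female mouse embryonic stem cells (mESCs) depleted of Smarcc1. They were the rows of the expression table whose symbol was Cdh1, Epcam, Cdh2, Vim, Fn1, Snai1, Snai2, Zeb1, Zeb2 or Twist1, so 10 of 25965 rows. Of these, 9 passed a filter on mean level that 13406 genes passed, and Snai2 did not. The cells were an FVB/CAST F1 line, a hybrid of 2 mouse strains used in the study to follow X chromosome inactivation. Day0 was 1 undifferentiated library without a hairpin. The other 12 libraries came from cells weaned into differentiation medium, given a hairpin retrovirus on day 2, put under puromycin on day 3 and harvested on days 4, 5, 6 and 7. On each of these days there was 1 library with a nonsilencing hairpin (Nons), 1 with the hairpin Smarcc1.6 and 1 with the hairpin Smarcc1.7. No cell type was sorted and no lineage was directed, so each library averaged a mixed culture. The 4 days stood in for replicates of a group. The p-values for knockdown pool the spread of the difference between days with that between the 2 hairpins of a day, and both may include technical spread. Where the hairpins of a day agree more closely than the days do, as for Cdh2 and Fn1, these p-values understate the spread between days.

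In an EMT, epithelial cells give up adherens junctions built on E-cadherin (Cdh1) and take on N-cadherin (Cdh2), a vimentin cytoskeleton and a fibronectin matrix. Transcription factors of the SNAI, ZEB and TWIST families bind E-box sequences and repress epithelial genes such as Cdh1. In the mouse embryo the transition takes place at the primitive streak, where epiblast cells leave the epithelium to form mesoderm and definitive endoderm. Smarcc1 is a core subunit of BAF, a complex that moves nucleosomes.

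The hairpins act through a guide strand complementary to the Smarcc1 transcript. The target sites, found by matching the study's hairpin sequences to GENCODE M21 transcripts, are shown because they define the perturbation. Capitals mark the bases that pair with guide bases 2 to 8, the seed, and both sites are on the + strand of mm10. Smarcc1.6 is directed at chr9:110177472-110177493 in exon 13 and Smarcc1.7 at chr9:110173911-110173932 in exon 11, both in coding sequence, with exons numbered in the longest coding transcript.
Smarcc1.6: gcaggatgaagaagCAGTTACa
Smarcc1.7: tcagaaggaagaagATGAGCAa
Neither site had a full match in a transcript of another gene, and the Nons guide had a full match in 0 genes.

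Smarcc1 itself was lower than in Nons in all 8 same-day comparisons. Levels are in log2 CPM, that is a gene's reads divided by the library's mapped reads and put on a common scale. From day 4 to day 7 the Smarcc1.6 libraries differed from Nons by -1.68, -1.47, -0.995 and -0.61, and the Smarcc1.7 libraries by -1.14, -1.08, -1.11 and -0.38. The difference was smallest on day 7 for each hairpin. Depth ran from 13993440 to 63548093 mapped reads. The share of mapped reads that fell in genes was 85.3% to 86.5% for Day0 and day 6 (4 libraries) and 91.6% to 92.6% for days 4, 5 and 7 (9 libraries), and the reason was not tested. Libraries of a day lay in the same range. Changes per day are therefore given also without day 6, and differences from Day0 for day 6.

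Per kb of exon, the epithelial genes stood at the top of the 10. The mean log2 CPM per kb over the 12 libraries was 7.07 ± 0.33 (SD, n = 12) for Cdh1 and 6.45 ± 0.13 for Epcam. Vim at 4.54 ± 0.71 and Fn1 at 4.14 ± 1.07 followed. The regulators were far lower, with Snai1 at 1.61 ± 0.50 and Twist1 at 1.04 ± 0.70, then Cdh2 at 0.0098 ± 0.80 and Zeb1 at -0.97 ± 1.22. Snai2 at -2.80 ± 1.28 and Zeb2 at -3.30 ± 0.67 came last. Neighbours in this order differed by more than the sum of their SDs between Cdh1 and Epcam, Epcam and Vim, and Fn1 and Snai1, and no other neighbours did.

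**Figure D1:**
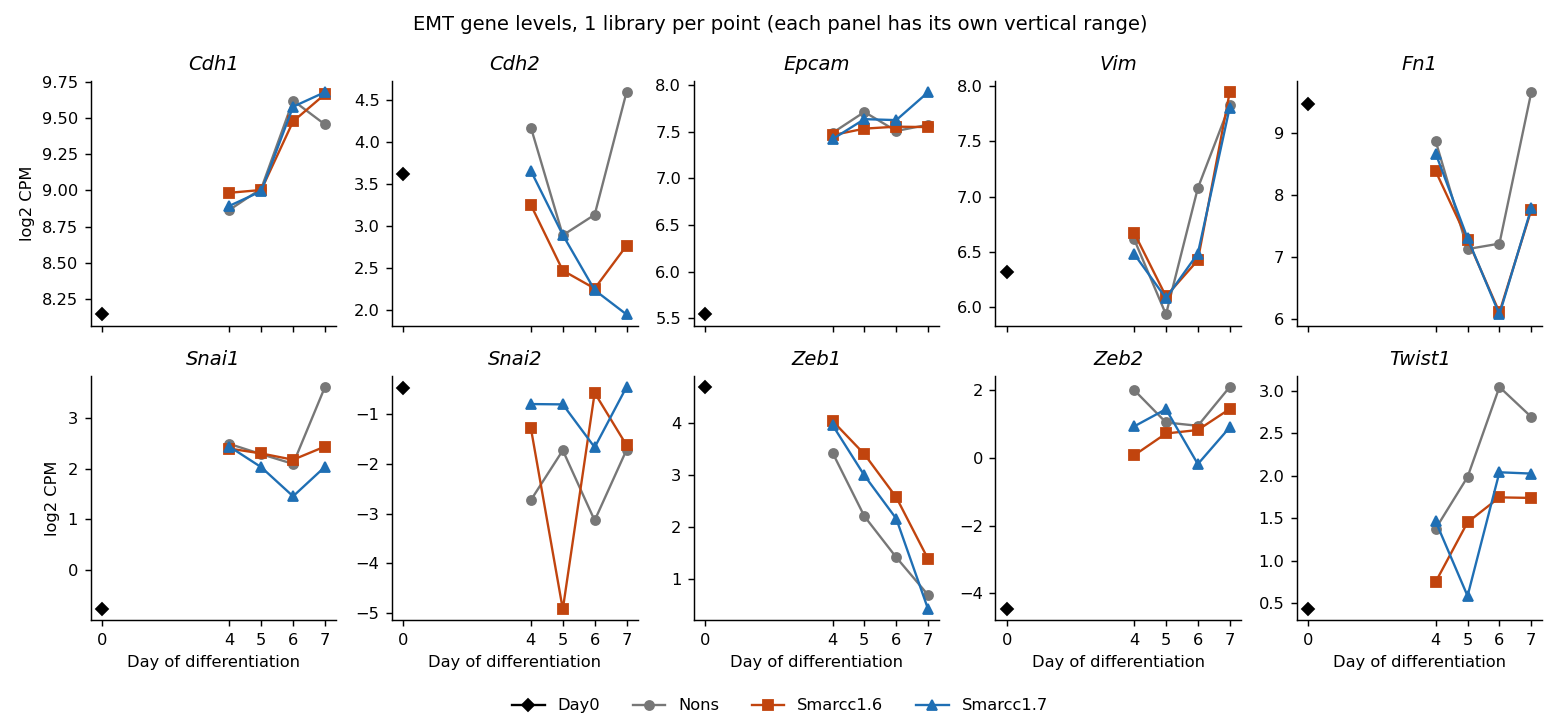
Level of each of the 10 EMT genes (log2 CPM, vertical axis, with its own range in each panel) by day of differentiation (horizontal axis), with 1 library per point and lines joining the days of a group. Cdh1 is alike in the 3 groups, Cdh2, Fn1 and Snai1 are highest in the Nons library of day 7, and Zeb1 declines from day 4 to day 7 in every group.

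The question for the epithelial genes was whether differentiation or Smarcc1 depletion moved them. Cdh1, the adhesion receptor of adherens junctions (chromosome 8, 106603351 to 106670246, + strand), was at a log2 CPM of 8.14 in Day0. Nons gave 8.86, 9.01, 9.62 and 9.45 on the 4 days in turn. Smarcc1.6 gave 8.98, 9.002, 9.48 and 9.66 and Smarcc1.7 gave 8.89, 8.99, 9.58 and 9.68. The 3 groups overlapped throughout, and days 6 and 7 were above days 4 and 5 in each of them. Cdh1 rose by 0.26 ± 0.04 (SE) log2 units per day (limma, adjusted p = 0.000446, n = 12 libraries), and by 0.24 without day 6 (adjusted p = 0.000369). Cdh1 was higher on day 7 than on day 4 in each group. Knockdown against Nons differed by 0.05, with a 95% interval from -0.08 to 0.17 (adjusted p = 0.637).

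Epcam, an epithelial adhesion molecule (chromosome 17, 87635979 to 87651106, + strand), was the steadiest of the 10. It was 5.54 in Day0, and 7.49, 7.71, 7.51 and 7.57 in Nons on days 4 to 7. The values were 7.46, 7.53, 7.55 and 7.55 with Smarcc1.6 and 7.42, 7.63, 7.62 and 7.92 with Smarcc1.7. The groups overlapped. Against Day0 the day-6 libraries were higher by 1.97, 2.01 and 2.08, with no test because Day0 is a single library. Neither the change per day, 0.06 with an interval from -0.01 to 0.14 (limma, adjusted p = 0.141; 0.07 without day 6), nor the knockdown difference, 0.02 with an interval from -0.14 to 0.17 (adjusted p = 0.904), passed the test.

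Cdh2, the cadherin of mesenchymal and neural cells (chromosome 18, 16588877 to 16809246, - strand), was lower with both hairpins. In Day0 it was 3.62. From day 4 to day 7 the Nons values were 4.17, 2.89, 3.13 and 4.59, from 309 to 1073 reads per library. Under Smarcc1.6 the values were 3.25, 2.47, 2.26 and 2.77, and under Smarcc1.7 they were 3.65, 2.89, 2.24 and 1.95. Same-day values were below Nons in 7 of 8 comparisons, the exception being Smarcc1.7 on day 5, which was 0.0042 above. Across both hairpins the difference was -1.01 ± 0.27 (SE), with a 95% interval from -1.59 to -0.43 (limma, adjusted p = 0.0324), and each hairpin stood at a geometric mean of 49.6% of Nons. Over the 4 days the same-day differences had an SD of 0.59 with Smarcc1.6 and 1.15 with Smarcc1.7, a spread that this SE and p-value understate. On day 7 alone the difference was -1.83 with Smarcc1.6 and -2.64 with Smarcc1.7. Without day 7 the difference was -0.60 (adjusted p = 0.0427), without day 6 it was -1.05 (adjusted p = 0.128) and without day 4 it was -1.11 (adjusted p = 0.0501), so the last 2 lost the call. Without the Nons library of day 7 it was -0.60 (adjusted p = 0.0755). The call was lost on leaving out any of 6 libraries (Nons of days 6 and 7, Smarcc1.6 of days 4, 5 and 6, Smarcc1.7 of day 6), with adjusted p from 0.0535 to 0.087.

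The cadherins were also set against each other within each library, as Cdh2 minus Cdh1. In Day0 there were 40.5 times as many Cdh1 as Cdh2 reads per kb. In Nons the ratio was 45.7, 123, 158 and 51.3 on days 4 to 7. It was 93.9, 163, 263 and 210 with Smarcc1.6, and 66.6, 121, 286 and 374 with Smarcc1.7. Cdh1 remained the main cadherin of the pair in all 13 libraries, and in Nons the balance on day 7 came back close to that of day 4, whereas in both hairpin groups it stayed further toward Cdh1. On the log2 scale, Cdh2 minus Cdh1 was below Nons by 1.04, 0.41, 0.73 and 2.03 with Smarcc1.6. The Smarcc1.7 differences were -0.54, 0.02, -0.85 and -2.87. The mean over both hairpins was -1.06 ± 0.97 (SD, n = 4 days), a description without a test, and -0.59 without day 7.

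**Figure D2:**
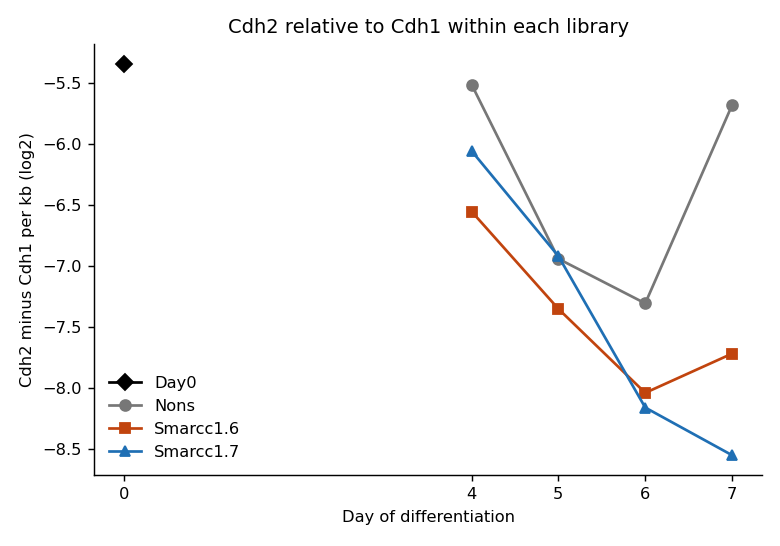
Cdh2 minus Cdh1 in log2 CPM per kb (vertical axis) by day of differentiation (horizontal axis), 1 library per point. All 13 points are below 0, and on day 7 the Nons library is at -5.68 while the hairpin libraries are at -7.72 and -8.55.

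Fn1, fibronectin, the matrix glycoprotein laid down by migrating mesoderm (chromosome 1, 71585523 to 71653171, - strand), was lower with both hairpins late in the series. It was 9.46 in Day0. Its Nons series ran 8.87, 7.13, 7.21 and 9.66 from day 4 onward. The series of Smarcc1.6 ran 8.38, 7.28, 6.11 and 7.76 and that of Smarcc1.7 ran 8.67, 7.30, 6.07 and 7.79. Levels were low on days 5 and 6 in every group, the hairpins agreed closely with each other, and they were below Nons in 6 of 8 comparisons, with the exceptions on day 5. Over both hairpins the difference was -0.80 ± 0.23 (SE), with an interval from -1.31 to -0.29 (limma, adjusted p = 0.0476). It rested on days 6 and 7, where the differences were -1.11 and -1.90 with Smarcc1.6 and -1.14 and -1.87 with Smarcc1.7. Without day 7 it was -0.43 (adjusted p = 0.147), and without day 6 it was -0.69 (adjusted p = 0.229). The call was lost on leaving out any of 10 libraries, that is all but the Nons libraries of days 4 and 5, with adjusted p from 0.0507 to 0.177. An antisense gene, Apol7d, shares 2.5% of the Fn1 exon bases, and whether counting used strand is not given in the sources used here.

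Vim, the intermediate filament protein vimentin (chromosome 2, 13573927 to 13582826, + strand), did not follow Cdh2 and Fn1 in the day-7 difference from Nons. It was 6.32 in Day0 and 6.61, 5.93, 7.08 and 7.83 in the Nons libraries in order of day. The Smarcc1.6 libraries held 6.67, 6.10, 6.42 and 7.95 and the Smarcc1.7 libraries 6.48, 6.08, 6.48 and 7.81. The day-7 libraries of all 3 groups were the highest, and there the difference from Nons was 0.12 with Smarcc1.6 and -0.02 with Smarcc1.7. On day 6 it was -0.65 with Smarcc1.6 and -0.59 with Smarcc1.7, the same direction as for Cdh2 and Fn1. Vim rose by 0.44 ± 0.13 (SE) per day (limma, adjusted p = 0.0129), and by 0.49 without day 6 (adjusted p = 0.0108). The rise rested on day 7, since it was 0.04 per day without it (adjusted p = 0.843), and the call was lost without the day-7 library of Smarcc1.6 or of Smarcc1.7 (adjusted p = 0.0542 and 0.052). The knockdown difference was -0.11, with an interval from -0.34 to 0.11 (adjusted p = 0.505).

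Snai1, the zinc finger repressor first switched on at the primitive streak (chromosome 2, 167538195 to 167542814, + strand), was at -0.78 in Day0, from 13 reads. The Nons libraries of days 4 to 7 held 2.49, 2.28, 2.09 and 3.61, from 334, 226, 150 and 362 reads. Smarcc1.6 gave 2.39, 2.30, 2.17 and 2.43 and Smarcc1.7 gave 2.43, 2.03, 1.45 and 2.03. The Nons library of day 7 was the highest of the 12, and the other 11 lay between 1.45 and 2.49. Over both hairpins the difference from Nons was -0.46, with an interval from -0.93 to 0.01, and did not pass the test (limma, adjusted p = 0.187). On day 7 it was -1.18 with Smarcc1.6 and -1.58 with Smarcc1.7.

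Snai2, the related repressor Slug (chromosome 16, 14705852 to 14709395, + strand), was near the limit of detection. It had between 1 and 37 reads per library, with the lowest count in the Smarcc1.6 library of day 5 and the highest in the Smarcc1.7 library of day 7. Its log2 CPM ran from -4.92 to -0.46 over the 12 libraries, and it was not tested.

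Zeb1, a zinc finger and homeodomain repressor of Cdh1 (chromosome 18, 5591860 to 5775467, + strand), went the other way from Cdh2. It was 4.68 in Day0. Nons gave 3.42, 2.20, 1.42 and 0.69 on the 4 days in turn. Under Smarcc1.6 the values were 4.03, 3.40, 2.57 and 1.38, and under Smarcc1.7 they were 3.95, 2.99, 2.16 and 0.42. Zeb1 declined at every step in each group, and the hairpin libraries were above Nons in 7 of 8 comparisons, the exception being Smarcc1.7 on day 7. It fell by 0.97 ± 0.07 (SE) log2 units per day (limma, adjusted p = 2.84e-06), and by 0.99 without day 6 (adjusted p = 4.45e-05). Knockdown was higher by 0.68 ± 0.20 (SE), with an interval from 0.25 to 1.11 (adjusted p = 0.0459). With Smarcc1.6 alone it was higher by 0.91 (adjusted p = 0.0163), and with Smarcc1.7 alone by 0.45 (adjusted p = 0.211). The knockdown call was lost on leaving out any of 10 libraries, that is all but the day-7 libraries of Nons and Smarcc1.7, with adjusted p from 0.0622 to 0.179, and without day 4, 5 or 6 (adjusted p = 0.0987, 0.211 and 0.204). The Smarcc1.6 call was lost without the library of Nons or Smarcc1.6 of day 5 or 6 (adjusted p from 0.0555 to 0.0759). The gene Gm10125 on the opposite strand shares 1.93% of the Zeb1 exon bases.

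Zeb2, the paralogue of Zeb1 (chromosome 2, 44983634 to 45117395, - strand), had 1 read in Day0 and 28 to 240 reads in the other 12 libraries. From day 4 to day 7 the Nons values were 2.01, 1.05, 0.95 and 2.10. The series of Smarcc1.6 ran 0.08, 0.72, 0.83 and 1.45 and that of Smarcc1.7 ran 0.93, 1.44, -0.18 and 0.90. It was below Nons in 7 of 8 comparisons, and the difference of -0.76, with an interval from -1.40 to -0.11, did not pass the test over all genes (limma, adjusted p = 0.115). Its antisense gene Zeb2os shares 3.27% of the exon bases.

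Twist1, a basic helix-loop-helix factor of mesoderm (chromosome 12, 33957671 to 33959817, + strand), was lower with both hairpins while it increased with time. It was 0.43 in Day0 (30 reads). Its Nons series ran 1.38, 1.99, 3.05 and 2.69 from day 4 onward. The Smarcc1.6 libraries held 0.75, 1.45, 1.75 and 1.74 and the Smarcc1.7 libraries 1.46, 0.59, 2.04 and 2.03. On days 5, 6 and 7 both hairpin libraries were below Nons, and on day 4 Smarcc1.7 was 0.08 above it. The knockdown difference was -0.80 ± 0.21 (SE), with an interval from -1.27 to -0.33 (limma, adjusted p = 0.0339). The call was lost on leaving out any of 8 libraries (Nons of days 5, 6 and 7, Smarcc1.6 of days 4, 6 and 7, Smarcc1.7 of days 5 and 6), with adjusted p from 0.0509 to 0.145, and without day 5, 6 or 7 (adjusted p = 0.107, 0.192 and 0.0763). It was also lost when all libraries were thinned to the smallest depth, where the difference was -0.54 (adjusted p = 0.183), and the shallowest library held 21 Twist1 reads. Twist1 rose by 0.38 ± 0.11 (SE) per day (adjusted p = 0.0118), by 0.33 without day 6 (adjusted p = 0.0288), and by 0.41 without day 4, which did not pass (adjusted p = 0.0831).

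The upstream sequences of the regulators Snai1 and Twist1 and of the epithelial gene Epcam are shown because SNAI, ZEB and TWIST factors bind the E-box CAGGTG. RefSeq promoter entries (GRCm38.p6) matched 5 of the 10 genes, Epcam, Vim, Snai1, Zeb2 and Twist1, and those of the other 5 were not analysed here. Capitals mark CAGGTG on either strand in the 250 bases before the start. Epcam is chr17:87635729-87635978, Snai1 is chr2:167537945-167538194 and Twist1 is chr12:33957421-33957670, all on the + strand.
Epcam: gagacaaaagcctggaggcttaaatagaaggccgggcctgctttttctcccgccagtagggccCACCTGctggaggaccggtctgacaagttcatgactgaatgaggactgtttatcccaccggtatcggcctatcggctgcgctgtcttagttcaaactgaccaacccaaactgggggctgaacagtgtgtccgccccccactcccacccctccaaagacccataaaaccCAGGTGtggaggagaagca
Snai1: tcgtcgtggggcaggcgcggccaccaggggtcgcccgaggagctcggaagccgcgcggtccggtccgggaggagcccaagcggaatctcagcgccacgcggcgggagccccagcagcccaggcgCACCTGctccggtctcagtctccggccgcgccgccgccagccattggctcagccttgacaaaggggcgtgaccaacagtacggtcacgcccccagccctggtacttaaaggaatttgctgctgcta
Twist1: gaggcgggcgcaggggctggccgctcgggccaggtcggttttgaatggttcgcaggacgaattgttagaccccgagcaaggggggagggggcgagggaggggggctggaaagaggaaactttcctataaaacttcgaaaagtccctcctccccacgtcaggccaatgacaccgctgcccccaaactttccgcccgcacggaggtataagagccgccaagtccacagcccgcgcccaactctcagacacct
Epcam held 2 matches, 187 and 19 bases before the start, and Snai1 held 1, at 126 bases. The Twist1, Vim and Zeb2 windows held 0. Among all 32851 promoters, 17.2% held CAGGTG in a window of this length. The general E-box CANNTG, of which CAGGTG is a case, was in 66.2% of all promoters and at no further place in these windows.

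Over all 9 tested genes, 4 passed the test for knockdown against Nons, where 11.6% of all 13406 genes did. Of these, 1 was higher (Zeb1) against 6.88% of all genes, and 3 were lower (Cdh2, Fn1 and Twist1) against 4.77%. The median difference of the 9 genes was -0.46, beside -0.01 over all genes tested. The number was 0 without day 6 and 0 without any of the Nons library of day 6, the Smarcc1.6 libraries of days 4 and 6 or the Smarcc1.7 library of day 6. It was 1 without the Nons library of day 7, the Smarcc1.6 library of day 5 or 7 or the Smarcc1.7 library of day 5. No direction of these 4 genes reversed in any alternative. Smarcc1.6 against Nons, with the same Nons libraries, gave 1 of 9 (Zeb1; 9.3% of all genes), and Smarcc1.7 against Nons gave 0 of 9 in limma (2.45% of all genes) and 0 with voom. In limma 5 of the 9 had an unadjusted p under 0.05 there. Between the hairpins 0 of 9 passed in limma, as did 0 of all genes (530 at an unadjusted p under 0.05), and 0 also with voom weights on the recovered reads (584). For Zeb1 the hairpins differed by 0.46, with an interval from 0.04 to 0.89 (adjusted p = 0.989).

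**Figure D3:**
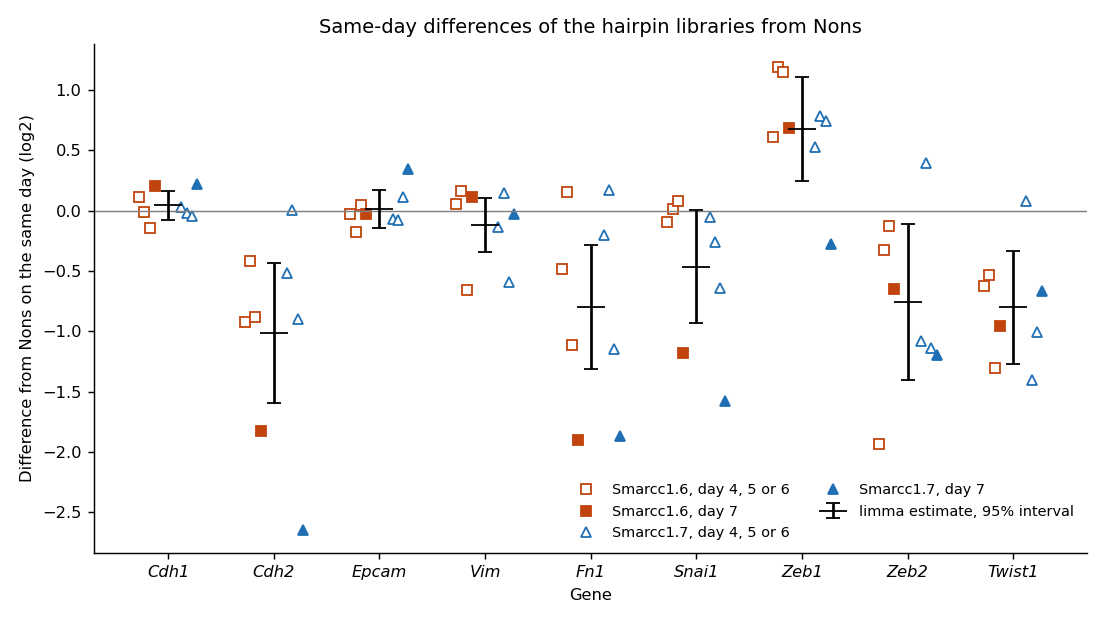
Difference of each hairpin library from the Nons library of the same day (log2, vertical axis) for the 9 tested genes (horizontal axis), with filled symbols for day 7 and black bars for the limma estimate and its 95% interval. The intervals of Cdh2, Fn1, Zeb2 and Twist1 lie below 0 and that of Zeb1 above it, and the day-7 points of Cdh2, Fn1 and Snai1 are the lowest of their genes in each hairpin.

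For the change per day, 4 of the 9 genes passed, where 60.5% of all genes did. Cdh1, Vim and Twist1 rose (34.9% of all genes) and Zeb1 fell (25.6%). A share of 4 of 9 is below that of all genes. In Nons, Cdh2, Fn1 and Snai1 were lower on days 5 and 6 than on days 4 and 7, which a line over the days does not describe. Without day 7, Cdh2 fell by 0.57 (adjusted p = 0.00473), Fn1 by 1.09 (adjusted p = 0.000549) and Snai1 by 0.27 per day (adjusted p = 0.034) in limma.

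On day 7, Cdh2, Fn1 and Snai1 differed most from Nons with each hairpin, whereas Zeb1 did so on day 5. On day 7 these 3 genes were lower than Nons by at least 1 log2 unit with both hairpins, so 3 of 9 genes where 1.01% of all genes were, and 0 were higher by that much. From day 5 to day 7 in Nons, 5 of 9 genes were higher by at least 1 log2 unit (13.9% of all genes). Fn1 was higher by 2.53, Vim by 1.90, Cdh2 by 1.701, Snai1 by 1.33 and Zeb2 by 1.05. With Smarcc1.6 the count was 1 of 9 (Vim, 1.85), where 16.7% of all genes were, and with Smarcc1.7 it was 2 of 9 (Vim, 1.73, and Twist1, 1.44), where 19.4% were. Over the same interval Fn1 was higher by 0.48 with each hairpin, Cdh2 by 0.30 and -0.95, and Snai1 by 0.14 and 0.01. These counts rest on 1 library per group and day and are a description without a test. The genes were chosen with earlier results of these data known, and Cdh2, Fn1 and Snai1 varied together. The interaction of knockdown with day, as a slope, passed for 0 of 9 genes in limma, and for 0 of all genes (745 at an unadjusted p under 0.05), and 0 also with voom (784). For Cdh2 it was -0.52 per day, with an interval from -1.17 to 0.12 (adjusted p = 0.980).

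**Figure D4:**
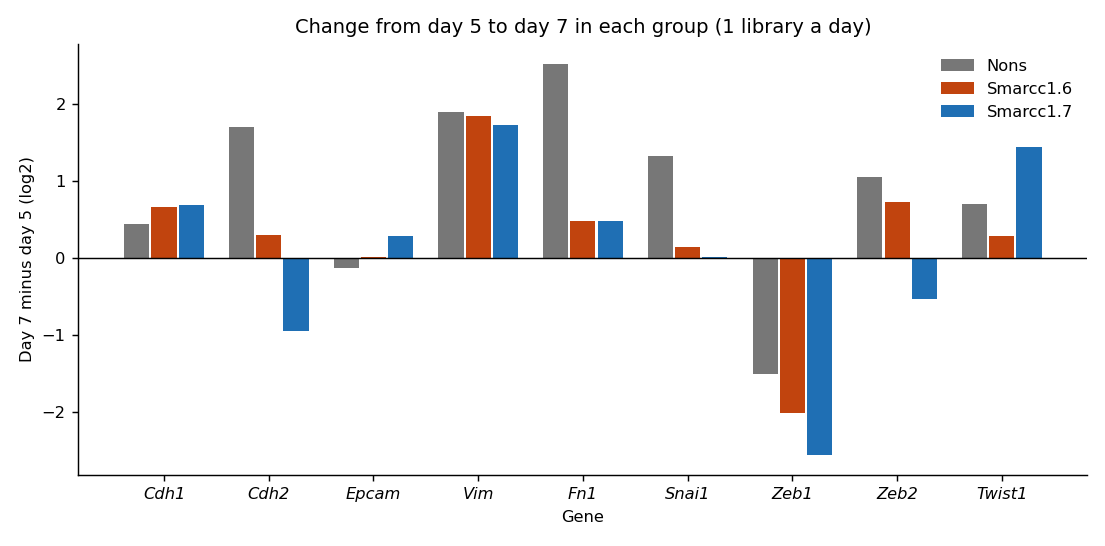
Day 7 minus day 5 in log2 CPM (vertical axis) for the 9 tested genes (horizontal axis), with a bar for each group and 1 library per day. Fn1 is higher on day 7 by 2.53 in Nons and by 0.48 with each hairpin, whereas Vim is higher by 1.73 to 1.90 in all 3.

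On days 6 and 7 the summed markers of the primitive streak and mesoderm were below Nons with both hairpins, as were Cdh2 and Fn1. On day 4 this sum was above Nons with both hairpins, while Cdh2 and Fn1 were below. On day 5 the sum was below Nons, while Fn1 was above. The summed level of the 7 listed genes (T, Eomes, Gsc, Mixl1, Mesp1, Tbx6 and Lhx1) was 17.9 CPM in Day0 and 41.3, 34.4, 115 and 367 in Nons on days 4 to 7. It was 51.7, 22.9, 25.8 and 72.6 with Smarcc1.6, and 47.0, 23.6, 24.0 and 34.6 with Smarcc1.7. All 7 had reads in the Nons library of day 7, led by T with 5334 and Eomes with 3272, and Mesp1 had 0 reads in both hairpin libraries of day 6. Of the 3 that passed the filter 2 fell on knockdown, T by 2.50 (limma, adjusted p = 0.0341) and Eomes by 0.92 (adjusted p = 0.0440). The call for T was lost on leaving out any of 7 libraries and that for Eomes on leaving out any of 9, among them the Nons libraries of days 5, 6 and 7. Over the libraries and days left out, adjusted p reached 0.202 for T and 0.248 for Eomes. The definitive endoderm markers summed to 39.6 CPM in Nons on day 7, against 12.5 and 10.9, and ranged from 3.10 to 10.7 in the other differentiating libraries. Of the 3 that passed the filter Sox17 fell on knockdown, by 0.88 (adjusted p = 0.0369), a call not checked by leaving out libraries or days. The mESC markers were higher with both hairpins on day 4, at 4083 and 3582 CPM against 2611 in Nons, and 4 of the 7 rose on knockdown. Their sum was above Nons on the later days too. With Smarcc1.6 and Smarcc1.7 it was 3091 and 2689 against 2224 on day 5, 2372 and 2554 against 2324 on day 6, and 2220 and 1729 against 1725 on day 7. Of the 5 neural markers that passed the filter, 3 rose on knockdown and 0 fell, and these calls were not checked by leaving out libraries. Nes, another of the 5, was not called and was below Nons in 6 of 8 same-day comparisons. Over all genes, 6.88% rose and 4.77% fell on knockdown. The part of these cell types in the differences of Cdh2, Fn1, Snai1 and Zeb1 was not tested, and in bulk libraries fewer cells of a type and less RNA per cell cannot be told apart.

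**Figure D5:**
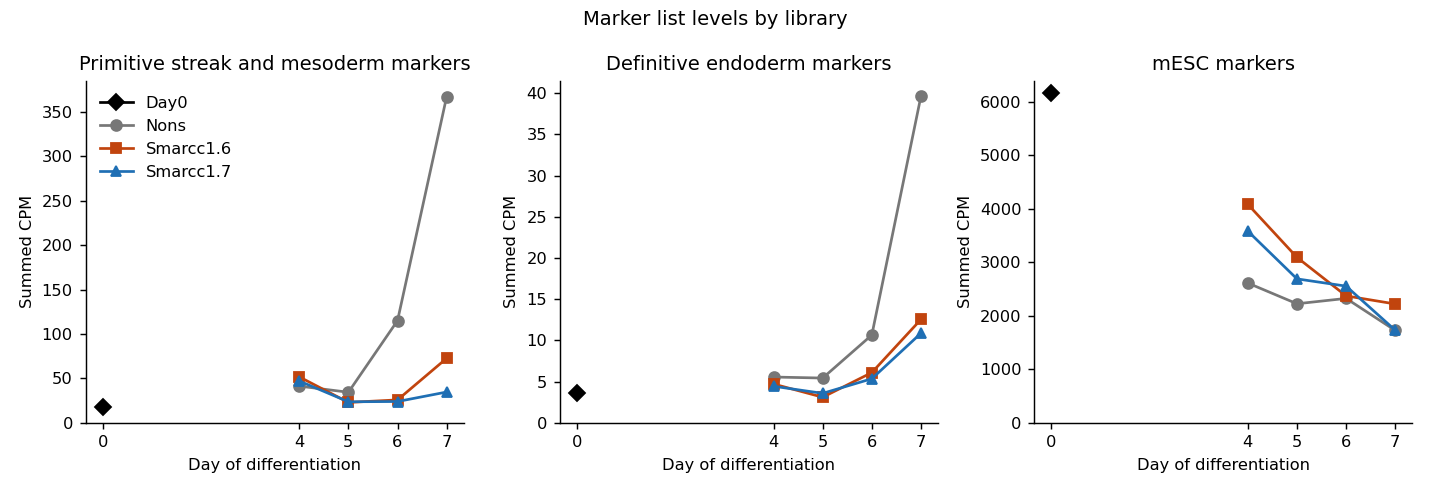
Summed level of 3 marker lists (CPM, vertical axes from 0) by day of differentiation (horizontal axes), 1 library per point. The streak and mesoderm markers reach 367 CPM in the Nons library of day 7 and at most 72.6 CPM in the hairpin libraries.

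Other junction genes were read from fixed lists. Over all 13406 genes, 34.9% rose with day and 25.6% fell. On knockdown 6.88% of all genes rose and 4.77% fell, and the list counts below are to be read beside these shares. Of the classical cadherins besides Cdh1 and Cdh2, 5 of 14 passed the filter. Cdh4 (R-cadherin) fell on knockdown by 0.48 (limma, adjusted p = 0.0475), and Cdh3 (P-cadherin) and Cdh24 rose with day, by 0.42 and 0.37 per day. Among 10 catenins and cadherin anchors, 3 fell on knockdown and 0 rose: Ctnnd2 (delta-2 catenin) by 0.66, Pvrl1 (nectin 1) by 0.59 and Vcl (vinculin, which ties junctions to actin) by 0.38. Ctnnb1 (beta-catenin) fell with day by 0.13, while Vcl rose by 0.60. Of 22 tight junction and desmosome genes, 21 rose with day and 0 fell, with Cldn7 at 1.97 per day. On knockdown 6 fell, among them the desmosomal genes Dsc2 by 1.09 and Dsp by 0.74, and Cldn3 rose by 0.91. Of 18 keratins, polarity genes and proteases, 17 rose with day and 0 fell. Krt8, a keratin of simple epithelium, rose by 2.57 per day and fell on knockdown by 0.50 (adjusted p = 0.0375). Of 12 epithelial regulators, 2 rose and 6 fell with day, and Klf4, also a pluripotency factor, was higher on knockdown by 1.40.

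The mesenchymal lists were mixed. Of 31 matrix and surface genes, 21 rose and 5 fell with day, and on knockdown 4 rose and 5 fell. Col1a2, a type I collagen chain, rose on knockdown by 2.82 (limma, adjusted p = 0.000923), while Col5a2, a type V chain, fell by 1.58 and Cd44, the hyaluronan receptor, by 1.08. Of 16 cytoskeleton genes 14 rose with day and 0 fell, with the smooth muscle genes Acta2 at 3.79 and Tagln at 3.40 per day, and on knockdown 3 fell, Flna by 0.48, Actn1 by 0.40 and Msn by 0.39. Of 14 other EMT transcription factors, 0 passed on knockdown in limma or with voom (4 and 3 at an unadjusted p under 0.05). Over the days 6 of them rose and 6 fell. Of 18 TGF-beta pathway genes, which signal upstream of SNAI and ZEB factors in many epithelia, only Tgfbr1 passed on knockdown, falling by 0.23 (adjusted p = 0.0490), and Tgfb2 rose with day by 1.696. Epithelial junction genes and contractile genes of mesenchymal type both rose over the same days. The changes per day named for these list genes passed without day 6 too, with adjusted p from 8.75e-06 (Acta2) to 0.00814 (Ctnnb1).

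The marker sums for trophoblast and for smooth muscle and fibroblast rose over the same days. Both marker lists share genes with the lists above, so these rises are not separate from those. The 6 trophoblast markers summed to 52.1 CPM on day 4 and 3699 on day 7 in Nons, to 89.4 and 3352 with Smarcc1.6 and to 66.6 and 2856 with Smarcc1.7, and 4 of the 6 rose with day. Of these markers 3 are keratins that the epithelial list also holds. The other 3, the transcription factors Cdx2, Gata3 and Tfap2c, summed to 29.7, 63.8, 40.8 and 46.1 CPM in Nons on days 4 to 7 and to between 43.6 and 61.5 in the hairpin libraries. The 9 smooth muscle and fibroblast markers summed to 28.7 CPM on day 4 and 1056 on day 7 in Nons, to 32.4 and 1364 with Smarcc1.6 and to 32.8 and 1281 with Smarcc1.7. Of the 7 that passed the filter 5 rose with day and 1 fell. The mesenchymal lists also hold 8 of the 9, and Myh11, the smooth muscle myosin that they do not hold, stayed between 0.237 and 1.63 CPM over the 12 libraries. The part of these cell types in the rises was not tested beyond these values. In the junction and mesenchymal lists, median changes per day were 1.15 for the cytoskeleton list, 1.11 for keratins, polarity genes and proteases and 0.83 for tight junctions and desmosomes, beside 0.04 over all genes. With each library centred on its median gene, 13 of 16, 16 of 18 and 20 of 22 rose and 0 fell. The median difference on knockdown ran from -0.35 (cytoskeleton) to -0.04 (tight junctions) over the lists, beside -0.01 over all genes.

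Few knockdown calls in these lists stood on all libraries. Apart from Sox17, which was not checked in this way, 18 genes were named for knockdown from the marker and pathway lists. Of these 18, 8 passed in limma without each of the 12 libraries in turn, and 3 of them (Col1a2, Col5a2 and Dsc2) also without each day in turn. The number of genes that fell without day 6 was 0 for catenins and anchors, 1 for tight junctions and desmosomes, 1 for keratins, polarity genes and proteases and 0 for the cytoskeleton. By contrast the number of cytoskeleton genes that rose with day stayed between 12 and 15 on leaving out 1 library or day, that of tight junction and desmosome genes between 18 and 21, and that of keratins, polarity genes and proteases between 16 and 17. The rises of matrix and surface genes were fewest, at 9, without day 7. Among the list genes named for the change per day, Cdh3 and Ctnnb1 lost the call without day 4, and Cdh3 and Cdh24 without day 7. Adjusted p reached 0.154 for Cdh3, 0.0945 for Cdh24 and 0.283 for Ctnnb1 in limma.

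The 9 genes fell into patterns across the 12 libraries, which share days. Cdh2, Fn1 and Snai1 varied together, with Pearson's r of 0.83 for Cdh2 and Fn1, 0.78 for Cdh2 and Snai1 and 0.81 for Fn1 and Snai1 (n = 12). Cdh1 and Zeb1 ran opposite, at -0.84, as their trends with day do. The genes most like Cdh1 were Tmem134, 2210021J22Rik, Zfp579, Prr7 and B3gnt1, all at 0.99. Those most like Cdh2 were Tiam2 at 0.93, Zfp948 at 0.87 and Synj1, Agphd1 and Sfxn1 at 0.86.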

How the data were processed

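RNA was measured in 13 libraries of paired-end reads of 75 bases. The authors trimmed the reads with trim_galore, aligned them with tophat or hisat2 to mm10 with strain variants masked, and counted reads per gene in Seqmonk, and the submitters' processing notes name TopHat2 2.0.12 and bcl2fastq. The deposited values are log2 CPM with both alleles together. Which library had which aligner is not given in the sources used here. All low values were whole multiples of 1 read (tolerance 0.1 reads), and 0 reads had been written as 0.9, so reads and depth could be recovered. At these depths 3 reads are a log2 CPM of -4.40 to -2.22. Such floors cover counting error only. Levels per kb used exon lengths of GENCODE M21.

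The filter kept genes whose log2 CPM averaged 0 or more over days 4 to 7, and these were tested with limma 3.58.1 (R 4.3.3, eBayes with trend) and Benjamini-Hochberg adjustment over all 13406 genes at 0.05, and the models were checked on simulated data. The simulated libraries varied independently, with a knockdown difference that was the same on every day. That check therefore does not cover a difference that varies between days. Knockdown and each hairpin were fitted with day as a factor, since the libraries of a day share its stage, and the change per day with group as a covariate. Day0 entered no fit. No pseudocount was added. Alternatives were other filters, no trend, median centring, log2(CPM + 1), voom, thinning to 13993440 reads, no day factor, 1 hairpin alone, and leaving out each library or day. The genes and lists were chosen with earlier results of these data known. Named list genes were up to 3 rises and 3 falls with the largest change past the threshold in each list. The lists also held markers of extraembryonic endoderm, neural, endothelial, blood, smooth muscle and trophoblast cells, of which 0, 3, 1, 0, 1 and 0 genes rose on knockdown. The 1 gene that fell was Krt8, on the trophoblast list. Python 3.11.15, numpy 2.4.6, pandas 2.3.3 and matplotlib 3.10.9 were used.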

Additional observations from a re-analysis of the deposited data

How the results depend on the processing

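The number of the 9 genes called for knockdown, 4, was 0 without the day factor (no replicate block), 1 with a filter at 2, 1 without trend, and 0 with Smarcc1.6 alone or Smarcc1.7 alone against Nons. It ran from 0 to 3 when 1 library or day was left out. Over all genes the count of 1561 was 4 without the day factor, 57 with Smarcc1.6 alone and 0 with Smarcc1.7 alone (limma, with 8 libraries), and ran from 287 to 2003 on leaving out. For Smarcc1.6 in the model of 3 groups, the 1 gene called became 0 without the day factor, 2 with log2(CPM + 1) and 2 with voom, and ran from 0 to 2 on leaving out. The corresponding count over all genes, 1247, was 0 without the day factor and ran from 178 to 1694. For Smarcc1.7 the count of 329 was 0 without the day factor, 188 with a filter at 2 and 145 without trend, and ran from 1 to 1052. Hairpins of a day share the Nons library of that day, and the pairing is by day of harvest. The 1 result that reversed was the Snai1 change per day, 0.05 over the 4 days, from -0.27 without day 7 to 0.24 without day 4. The other changes that no longer passed or newly passed were 90 and 10 of 1230 recomputed values. The cause of these changes was not tested, and leaving out libraries also makes their number smaller. Median centring turned the split of all genes by day from 4679 higher and 3435 lower to 3648 and 4606, with 4 of 9 EMT genes called in both. Depth limits Snai2, Zeb2 and Twist1 most.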
